A study of Mus musculus with 6 samples.

Results

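The genes described here encode the heat-shock proteins and the endoplasmic reticulum (ER) chaperones, the machinery that folds proteins, refolds damaged ones and hands those that fail to the proteasome. They were 37 genes chosen by name and found by symbol among the 17920 genes of the deposited table, where all 37 had a row. By the compartment in which the proteins work, 22 were ER genes, 12 cytosolic and 3 mitochondrial. The ER genes comprised 15 for folding, 4 for the degradation of misfolded proteins (Herpud1, Sel1l, Syvn1 and Edem1) and 3 for sensing (Xbp1, Atf6 and Ern1).

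RNA was sequenced from cells of the mouse cortex at E13.5 (E, embryonic day) in 3 WT and 3 KD libraries. KD means knockdown of Ybx1, a cold-shock domain protein that binds RNA and reads the m5C modification. The labels speak of cortex tissue with a deletion, whereas the study's methods describe cultured cortical cells infected with an shRNA lentivirus and selected with puromycin. Such a culture is mixed and holds progenitors and neurons. The methods list a control shRNA, but whether the WT libraries received it is not given in the sources used here. Nor is it given which of the study's Ybx1 shRNAs the KD libraries received. No label describes heat, a chemical stressor or any other treatment that would unfold proteins.

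Unfolded proteins are sensed separately in each compartment. In the cytosol, heat-shock factor Hsf1 binds heat-shock elements and raises the inducible Hsp70 genes Hspa1a and Hspa1b. In the ER, the unfolded protein response (UPR) works through 3 membrane sensors: Ern1 (IRE1), which splices Xbp1 mRNA, Atf6, which is cut to release a transcription factor, and Eif2ak3 (PERK), which slows translation. Xbp1 and Atf6 then raise the ER chaperones and the genes of ER-associated degradation (ERAD). Mitochondria hold their own Hsp60 (Hspd1), its lid Hspe1 and an Hsp70 (Hspa9). In the embryonic cortex, dividing progenitors and young neurons that make membrane and secreted proteins depend on these chaperones without any added stress.

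Ybx1 itself had 618, 615 and 653 normalised counts in the WT libraries and 98.3, 92.2 and 159 in the KD libraries, where a normalised count (CPM) is a count scaled to an equal library total after TMM correction. Its log2 fold change was -2.43 ± 0.18 (SE, adjusted p = 0.00018), and 18.5% of the WT level remained. Totals of 16294635 to 16497505 estimated counts per library left depth nearly equal. The 7 markers of cortical progenitors summed to between 495 and 543 TPM (transcript share scaled to an equal sum in each library) in WT and between 551 and 743 TPM in KD, and 2 of them (Pax6, with fractional counts in all 6 libraries, and Hes1) were higher in KD. The 7 neuron markers summed to 2528 to 3138 TPM in WT and 2721 to 3228 TPM in KD, and only Dcx was called, as higher. The 4 interneuron markers summed to 317 to 462 TPM in WT and 355.5 to 514 TPM in KD, which overlapped. Of these markers only Dlx2 was called, as higher, with a log2 fold change of 1.23 ± 0.14. Dlx1, Gad2 and Gad1 were at 0.35 ± 0.12, 0.068 ± 0.19 and -0.25 ± 0.18. The 7 glial markers ran from 364 to 456 TPM in WT and from 323 to 376 TPM in KD, and only Olig1 was called, as lower. Markers of other origin were sparse, at no more than 4.10 TPM summed for microglia, 1.47 for endothelium, 9.02 for mesenchyme and 1.07 for blood. Of the mesenchymal markers Pdgfrb was higher in KD, whereas the other 2 tested, Col1a1 and Dcn, were below 0 without a call. Of the 5 blood genes 2 had no row, and the other 3 had no more than 2 estimated counts in any library. Whether these shifts in markers have a part in the chaperone results was not tested. In bulk RNA, a change in the share of a cell type and a change in RNA per cell cannot be told apart.

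Levels between genes were compared only as TPM, which divides by transcript length. Hspa8 (Hsc70), the constitutive cytosolic Hsp70, was the most abundant of the 37 at a mean of 2463 TPM over the 6 libraries, followed by the cytosolic Hsp90 genes Hsp90ab1 at 1852 TPM and Hsp90aa1 at 1044 TPM. Calr, an ER lectin chaperone that also binds calcium, led the ER genes at 598 TPM. Next among them came Pdia3 at 335 TPM, a disulfide isomerase that works with Calr, then Hspa5 (BiP), the ER Hsp70, at 309 TPM and Hsp90b1 (GRP94), the ER Hsp90, at 294 TPM. The heat-inducible Hspa1a and Hspa1b stood at 6.34 and 9.61 TPM, and the small heat-shock gene Hspb1 at 0.408 TPM with 1 to 3 estimated counts in each library, too few to be tested. Hence 36 of the 37 genes entered the test.

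**Figure D1:**
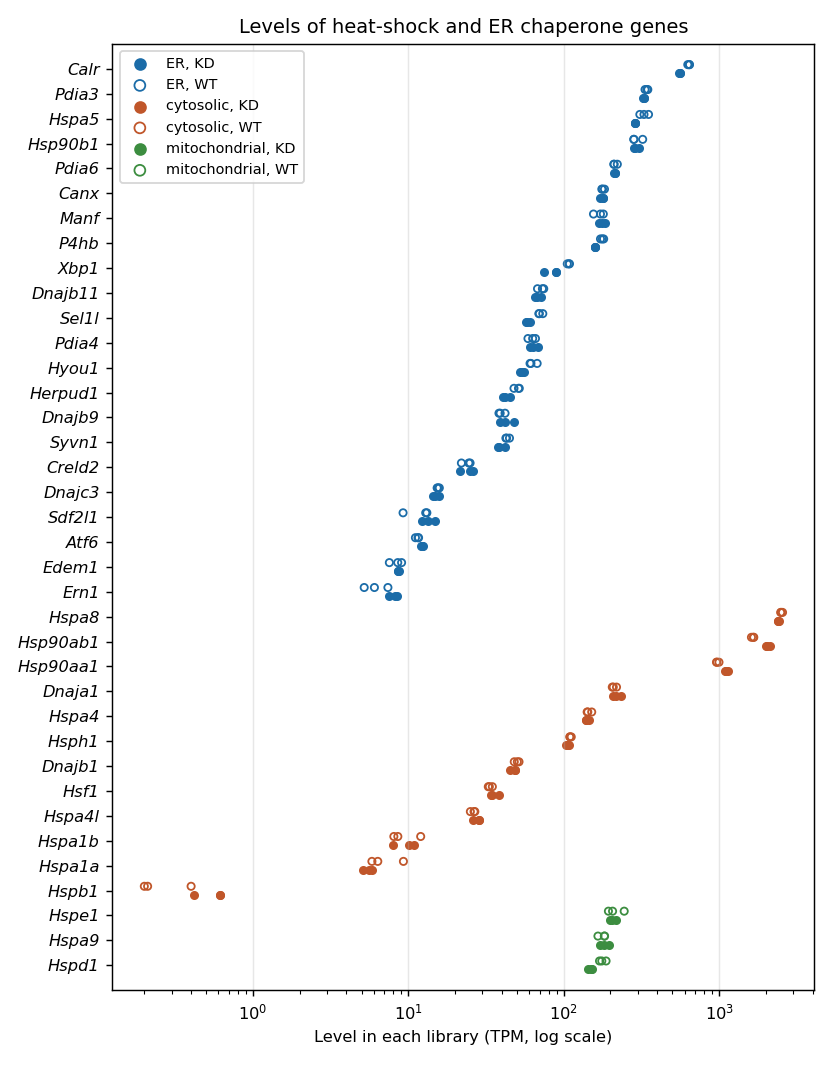
Level of each of the 37 genes in each library, in TPM on a log scale, with open circles for the 3 WT and filled circles for the 3 KD libraries, coloured by compartment and ordered by mean level within it. Hspa8, Hsp90ab1 and Hsp90aa1 lie at the right end, and Hspb1 lies below 1 TPM in all 6 libraries.

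The promoters of these genes were read for the letters of stress elements, since these are what joins an ER gene to the UPR and a heat-shock gene to Hsf1. The ER stress element (ERSE) was searched as CCAAT, any 9 bases, CCACG. The related ERSE-II was ATTGG, 1 base, CCACG, and the heat-shock element (HSE) was 3 alternating GAA and TTC units set 2 bases apart, each on both strands. The window ran from 250 bases before to 50 bases after the RefSeq start site (GRCm38.p6), and 29 of the 37 genes matched a window. Without one were Hyou1, Manf, Atf6, Hspa8, Hsp90aa1, Hsp90ab1, Hsf1 and Hspa9. An ERSE lay in 8 of the 19 ER genes with a window (42.1%) and in 37 of all 27025 genes with one (0.137%). The 8 were Calr, Canx, Creld2, Dnajc3, Hsp90b1, Hspa5, Pdia6 and Syvn1. Among 23 other ER genes with a window, from a textbook list described further on, 2 held an ERSE (8.7%). ERSE-II lay in Dnajb11 and Herpud1 (10.5% of the 19, against 0.0444% of all), and no gene among the 37 held both. The HSE was found in Hsph1, Hspd1 and Hspe1, 3 of the 29 genes with a window (10.3%), against 0.662% of all genes. The matches of Hspd1 and Hspe1 are the same bases. Hspa1a, Hspa1b and Dnajb1 had a window and no such match. The search allowed no mismatch in the fixed letters, so a gene without a match may still hold an element of other letters. The 37 genes were chosen by name as chaperone and stress response genes. Shares above those of all genes may reflect that choice and were not tested.

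The sites below are shown because they belong to the 4 ER genes that fell in KD and hold an element, with Hsp90b1, which holds 2 of them and was not called, set beside them. Each is written 5′ to 3′ on the strand given, and capitals mark the fixed letters of the element.
Hspa5, chr2:34772025-34772043, plus strand, 65 bases before the start: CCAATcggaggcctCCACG
Calr, chr8:84847075-84847093, plus strand, 162 bases before the start: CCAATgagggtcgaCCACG
Syvn1, chr19:6046532-6046550, plus strand, 44 bases before the start: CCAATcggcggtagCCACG
Herpud1, ERSE-II, chr8:94386377-94386387, plus strand, 52 bases before the start: ATTGGgCCACG
Hsp90b1, chr10:86705638-86705656, minus strand, 212 bases before the start: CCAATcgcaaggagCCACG
Hsp90b1, chr10:86705533-86705551, plus strand, 107 bases before the start: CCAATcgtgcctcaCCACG
The fixed letters are the same in all 5 ERSEs because the search required them, and the 9 bases between them differ. The longer stretch of Hspa5 from its ERSE to the base before the start, at chr2:34772025-34772089 on the plus strand, shows how close the element stands to the start:
Hspa5 upstream: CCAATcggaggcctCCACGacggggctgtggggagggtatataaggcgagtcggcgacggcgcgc

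**Figure D2:**
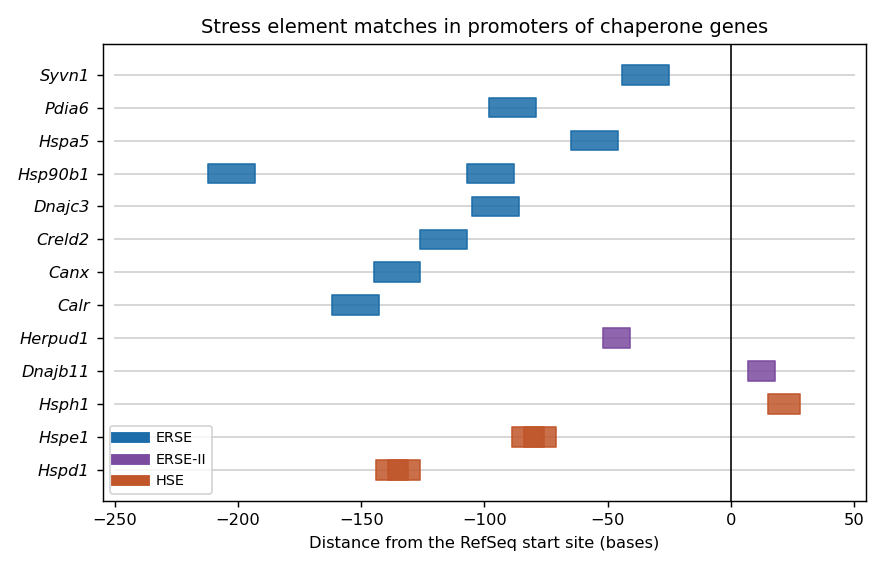
Position of each ERSE, ERSE-II and HSE match in the promoters of the 13 genes that hold one, in bases from the RefSeq start site, with the searched window drawn as a grey line. The ERSE matches all lie before the start, and overlapping boxes for Hspd1 and Hspe1 are overlapping HSE matches, drawn for Hspd1 from the inner of its 2 start sites.

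The question put to the libraries was whether the knockdown of Ybx1 changed the expression of these chaperones. Over the 36 tested genes, 10 were lower and 2 higher in KD at an adjusted p under 0.05. The calls come from the quasi-likelihood test of edgeR, corrected across the 13669 genes that entered it (Benjamini-Hochberg). The same test called 11.9% of all genes lower and 12% higher. Among genes with a mean of at least 20 CPM, which 31 of the chaperones reached, it called 15.8% lower and 15.6% higher. The 8 lower ER genes of 22, with none higher, stood above that background, whereas the cytosolic genes, 1 lower and 2 higher of 11, were near it. Of the 3 mitochondrial genes 1 was lower. Whether the compartments differ from each other was not tested. On log2 TPM, limma called more of all genes higher (2076) than lower (1072), where edgeR on counts called 1646 and 1631, and the chaperones then gave 7 lower of the ER, 2 higher of the cytosolic and 1 lower of the mitochondrial genes. With the replicate number as a block, edgeR called 2470 of all genes lower (18.1%) and 2539 higher (18.6%), and 8 ER genes stayed lower.

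**Figure D3:**
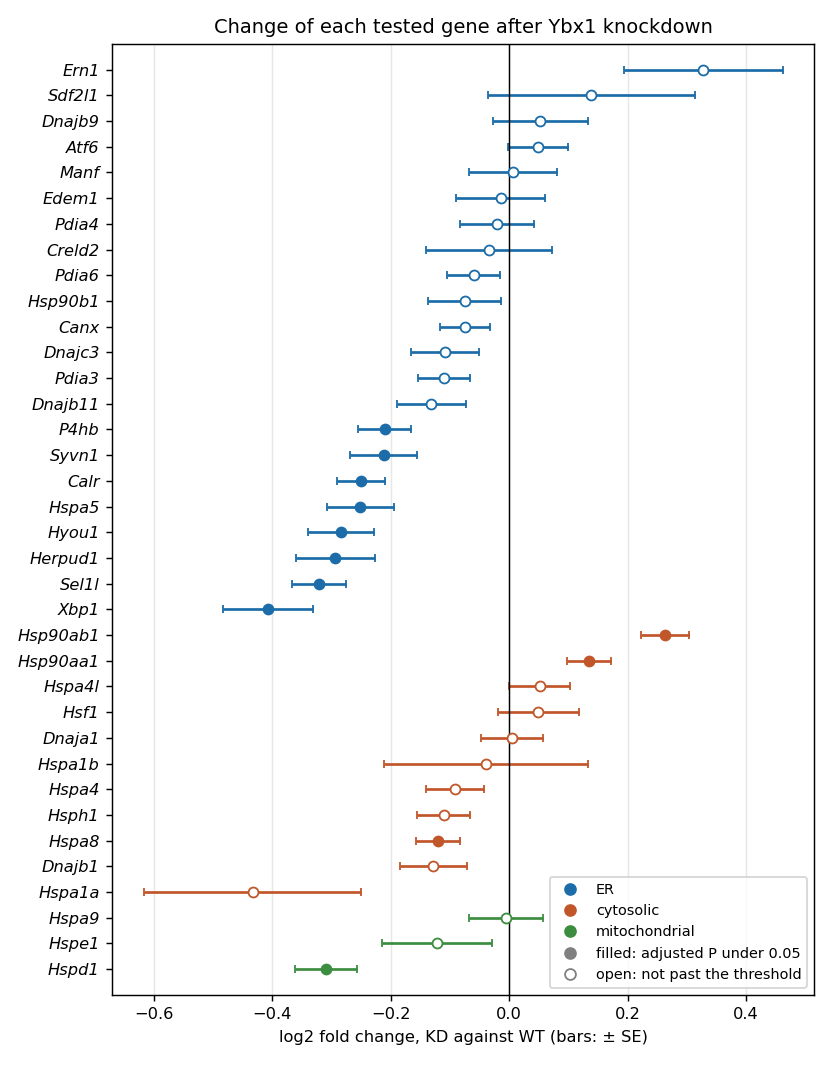
The log2 fold change of KD against WT for each of the 36 tested genes with its SE as a bar, ordered within compartments and filled where the adjusted p was under 0.05. All filled ER points lie left of 0, between -0.41 and -0.21, and Hsp90ab1 and Hsp90aa1 are the filled points right of 0.

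In the ER, 8 of 22 genes fell in KD and none rose, with changes between -0.21 and -0.41 on the log2 scale, that is to between 75.4% and 86.4% of the WT mean. The genes that fell were the chaperones Hspa5, Calr and Hyou1, the isomerase P4hb, the ERAD genes Herpud1, Sel1l and Syvn1, and the transcription factor Xbp1. The log2 fold change was below 0 in 17 of the 22, against 50.3% of all genes tested, with a median of -0.092 against -0.0013 over all genes. In 11 of them the highest KD library was below the lowest WT library, which held for 20.6% of all genes, and in 1 of them (Atf6) the order was the reverse, which held for 21.0%. Both shares are over all genes tested. They were not taken at a mean of at least 20 CPM, which 19 of the 22 reached.

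Among the folding genes, Hspa5 (Entrez Gene 14828, gene span chr2:34772090-34776529 on GRCm38, as for the spans that follow), the Hsp70 that binds nascent chains and holds the UPR sensors inactive, had 402, 380 and 348 CPM in WT and 312, 314 and 323 CPM in KD. The WT libraries were spread over a wider range than the KD libraries, and the lowest WT library was above the highest KD library. Its level fell by 0.25 ± 0.06 on the log2 scale (SE, adjusted p = 0.015). Calr (chr8:84842088-84846931) had 523, 540 and 528 CPM in WT against 445, 440 and 453 CPM in KD, a change of -0.25 ± 0.04 (adjusted p = 0.0037). Both groups were tight here and clearly apart. Hyou1 (chr9:44379490-44392369), an Hsp110-type protein that exchanges the nucleotide on Hspa5, had 142, 130 and 126 CPM in WT against 112, 107 and 108 CPM in KD, a change of -0.28 ± 0.06 (adjusted p = 0.0081). P4hb (chr11:120560298-120573253), protein disulfide isomerase, had 234, 232 and 220 CPM in WT against 197, 195 and 201 CPM in KD, a change of -0.21 ± 0.05 (adjusted p = 0.012). Neither gene's groups overlapped.

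The other 11 folding genes did not pass the test. Hsp90b1 had a log2 fold change of -0.075 ± 0.06, with overlapping libraries of 346 to 400 CPM in WT and 336 to 361 CPM in KD. Canx, the membrane-bound partner of Calr, was at -0.075 ± 0.04 although its libraries did not overlap, and Pdia3 was at -0.11 ± 0.04 (adjusted p = 0.10). The isomerases Pdia4 and Pdia6 were at -0.021 ± 0.06 and -0.06 ± 0.05. Among the J-domain co-chaperones of Hspa5, Dnajb11 was at -0.13 ± 0.06 and Dnajc3 at -0.11 ± 0.06, both below 0, while Dnajb9 was at 0.053 ± 0.08. The secreted or soluble UPR targets Manf, Creld2 and Sdf2l1 were at 0.0072 ± 0.07, -0.034 ± 0.11 and 0.14 ± 0.18. Sdf2l1 rested on few counts, at no more than 5.83 CPM in any library.

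Of the 4 ERAD genes, 3 fell. Sel1l (chr12:91806043-91849157), the adaptor that carries substrates to the ER membrane ligase, had 209, 213 and 219 CPM in WT and 166, 174 and 173 CPM in KD, a change of -0.32 ± 0.04 (adjusted p = 0.0020). Syvn1 (chr19:6046576-6053718), also called Hrd1, is that ligase, and it had 66.6, 64.9 and 62.8 CPM in WT and 58.7, 53.5 and 55.5 CPM in KD. Its change was -0.21 ± 0.06 (adjusted p = 0.027). Herpud1 (chr8:94386429-94395371), a membrane protein of the same complex, had 42.9, 43.8 and 39.5 CPM in WT and 32.6, 36.2 and 34.2 CPM in KD, a change of -0.29 ± 0.07 (adjusted p = 0.015). All 3 were below WT in every KD library. Edem1, which recognises trimmed glycans, was at -0.014 ± 0.08. The 4 together summed to 173 TPM in WT (SD 0.886, n = 3) and 149 TPM in KD (SD 2.72, n = 3).

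The sensors did not move as one. Xbp1 (chr11:5520641-5525993), whose spliced mRNA encodes the UPR transcription factor, had 107, 108 and 102 CPM in WT and 70.2, 83.3 and 85.6 CPM in KD. KD replicate 1 was lower than the other 2 KD libraries, which lay close together, and all were below WT. The change of -0.41 ± 0.08 (adjusted p = 0.0063) was the largest called among the 36 genes. These are gene totals and do not separate spliced from unspliced Xbp1. Atf6 was at 0.049 ± 0.05, with 40.7 to 42.1 CPM in WT and 42.5 to 43.3 CPM in KD. Ern1 had 9.65, 11.4 and 13.51 CPM in WT and 13.3, 14.6 and 15.5 CPM in KD, overlapping at WT replicate 3 and KD replicate 1, and its change of 0.33 ± 0.13 was not called (adjusted p = 0.11). With the replicate number as a block it was called higher (adjusted p = 0.017), and also without WT replicate 3 (adjusted p = 0.035).

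Leaving out WT replicate 2 or KD replicate 2 left 4 or 5 lower ER genes in place of 8. Among all genes, the same fits left 797 or 849 lower in place of 1631. With both replicate 2 libraries left out, 2 libraries against 2, none of the 12 called chaperones kept its call. Of all genes 93 were then lower and 135 higher. Hspa5 and P4hb lost the call without WT replicate 2 and also without KD replicate 2 (adjusted p = 0.060 and 0.059 for Hspa5, 0.054 and 0.054 for P4hb). Herpud1 lost it without WT replicate 2 (adjusted p = 0.065), and Syvn1 without WT replicate 1 or 2 or KD replicate 2 or 3 (adjusted p between 0.071 and 0.11). Syvn1 also lost it in DESeq2 (adjusted p = 0.0502) and on TPM (0.12).

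For the 14 ER genes without a call, the 95% confidence intervals of the log2 fold change reached from -0.28 at the lowest to 0.63 at the highest. Only those of Creld2, Dnajb11 and Sdf2l1 reached the point estimate of Hspa5, whose own interval ran from -0.38 to -0.12. Whether the genes without a call changed less than those called was not tested. Hspa5 and Pdia3 had fractional estimated counts, which arise where reads are divided between genes, in 3 of the 6 libraries, and the other 20 ER genes had whole counts throughout.

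**Figure D4:**
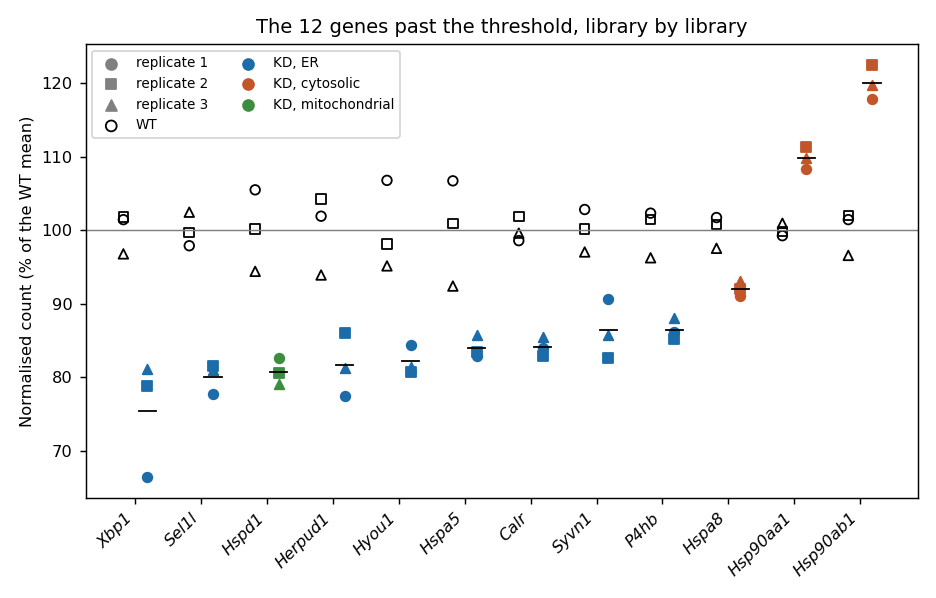
Normalised count of the 12 called genes in each library as a percentage of the gene's WT mean, with open marks for WT, filled marks for KD, shapes for the replicate number and a short line at the KD mean. Xbp1 shows the lowest KD library at 66.4%, and in none of the 12 genes do WT and KD marks overlap in range.

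The summed level of the 22 ER genes was 3016, 2916 and 2861 TPM in WT and 2750, 2718 and 2706 TPM in KD, a mean of 2931 ± 78.5 against 2724 ± 22.7 (SD, n = 3). The KD mean was 92.9% of WT, and the highest KD library was below the lowest WT library. Calr, Hspa5, Hsp90b1 and Pdia3 made up 54.8% ± 0.0851 of the sum in WT and 53.8% ± 0.198 in KD. The other 18 genes thus held slightly more of the sum in KD than in WT.

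**Figure D5:**
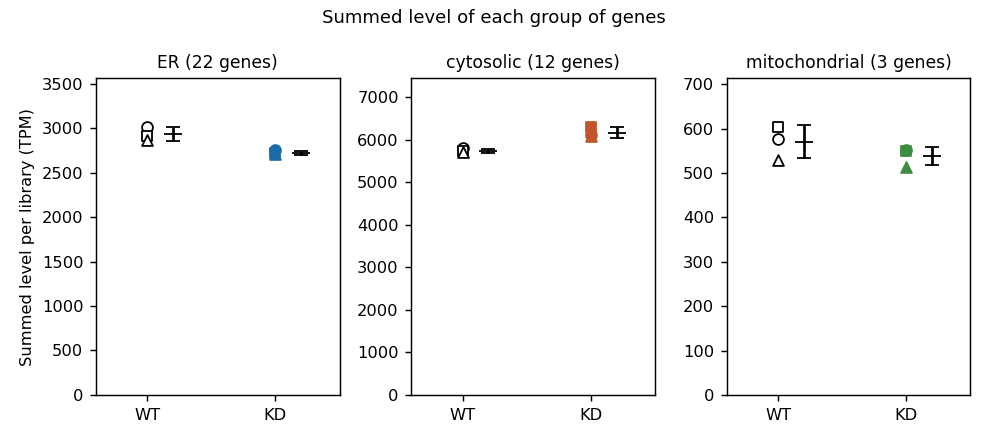
Summed TPM of the 22 ER, 12 cytosolic and 3 mitochondrial genes in each library, with open marks for WT and filled marks for KD, circles, squares and triangles for replicates 1, 2 and 3, and the mean ± SD (n = 3) beside them. ER sums are lower in all KD libraries, cytosolic sums are higher in all KD libraries, and mitochondrial sums overlap.

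ER genes with and without an ERSE were among those that fell. Of the 8 with one, 3 (Hspa5, Calr and Syvn1) were lower, with a median change of -0.092 over the 8 and values from -0.25 to -0.034. Of the 2 with ERSE-II, Herpud1 was lower and Dnajb11 was not called. Of the 9 ER genes with a window and no such match, 3 (P4hb, Sel1l and Xbp1) were lower, with a median of -0.021 and a range from -0.41 to 0.33. Hsp90b1, with the 2 elements printed above, was not called. These matches are exact letters in a window, and no binding was measured here. A gene without a match may hold an element of other letters, so the 2 groups are not genes with and without UPR control.

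In the cytosol the abundant genes moved in opposite directions. The Hsp90 genes Hsp90ab1 and Hsp90aa1 rose, Hspa8 fell, and 8 of the 11 tested genes were not called. The median log2 fold change was -0.039, with 6 of 11 below 0. A count of 2 higher and 1 lower among 11 is close to the 12% and 11.9% of all genes. Among genes with a mean of at least 20 CPM, which 9 of the 11 reached, the shares were 15.6% and 15.8%.

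Hsp90ab1 (chr17:45567778-45573261), the constitutive Hsp90 that matures kinases and receptors, had 1865, 1876 and 1776 CPM in WT and 2167, 2253 and 2201 CPM in KD. All KD libraries were far above all WT libraries, and the change was 0.26 ± 0.04 (adjusted p = 0.0030). Hsp90aa1 (chr12:110691036-110696395), its heat-inducible form, had 1247, 1254 and 1268 CPM in WT and 1361, 1398 and 1380 CPM in KD, a smaller rise of 0.13 ± 0.04 (adjusted p = 0.031). Hspa8 (chr9:40801276-40805202), which folds nascent chains and uncoats clathrin vesicles, had 2336, 2314 and 2240 CPM in WT and 2091, 2112 and 2138 CPM in KD. It was below WT in every KD library, with a change of -0.12 ± 0.04 and an adjusted p of 0.048, just under the threshold.

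As a share of the cytosolic TPM, Hspa8 went from 43.9% ± 0.255 in WT to 39.0% ± 0.415 in KD (SD, n = 3), and the Hsp90 genes together from 45.8% ± 0.166 to 51.3% ± 0.326. The gap between them was small in WT and wider in every KD library. The 3 genes together held 89.7% of the cytosolic TPM in WT and 90.4% in KD. The cytosolic sum was 5793, 5725 and 5700 TPM in WT and 6114, 6302 and 6079 TPM in KD, and its KD mean was 107% of WT. It was higher in every KD library than in any WT library, whereas the ER sum was lower in every KD library.

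The heat-inducible Hsp70 genes Hspa1a and Hspa1b showed no called change in the main fit. Hspa1a had 11.7, 8.15 and 7.29 CPM in WT and 6.19, 6.65 and 7.27 CPM in KD, with WT replicate 1 standing above all others, and its change of -0.43 ± 0.18 was not called (adjusted p = 0.12). It was called lower when the replicate number was a block (adjusted p = 0.049). Hspa1b, its near-identical neighbour, had 15.2, 11.0 and 10.1 CPM in WT and 13.2, 12.3 and 9.94 CPM in KD, a change of -0.039 ± 0.17. Both genes had fractional counts in all 6 libraries, and 47.1% of the 100-base windows of Hspa1a transcripts occur in Hspa1b. Their summed estimated counts, which do not depend on how reads were divided between the pair, were 444, 309 and 278 in WT and 322, 310 and 284 in KD. The sums overlapped, and WT replicate 1 was again the highest. Hsf1, the heat-shock factor, was at 0.05 ± 0.07.

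The co-chaperones and the Hsp110 genes were likewise not called. Dnajb1 and Dnaja1, J-domain partners of Hsp70, were at -0.13 ± 0.06 and 0.0049 ± 0.05. The nucleotide exchange factors Hsph1, Hspa4 and Hspa4l were at -0.11 ± 0.05, -0.091 ± 0.05 and 0.051 ± 0.05. For Hsph1, Dnajb1 and Hspa4 every KD library was below every WT library although none was called. With Hspa8 and Hspa1a, this order held for 5 of the 11 tested cytosolic genes, against 20.6% of all genes. The reverse order held for 2 of the 11, against 21.0% of all genes. For neither order was the share taken among genes with a mean of at least 20 CPM. The 95% intervals of the 8 cytosolic genes without a call reached from -0.85 to 0.35 on the log2 scale.

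Of the cytosolic calls, Hsp90ab1 held in 16 of 17 alternatives, whereas Hspa8 held in 6 and lost the call under RLE (adjusted p = 0.050) and total count scaling (0.088), with no filter (0.094), in DESeq2 (0.072), on TPM (0.32) and without any 1 library except WT replicate 3 (0.072 to 0.17). Hsp90aa1 lost it with upper quartile scaling (adjusted p = 0.050) and without WT replicate 1 or 2 or KD replicate 2 or 3 (0.056 to 0.11).

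Hspa8 and Hsp90aa1 transcripts share sequence with other annotated genes, in 62.8% and 47.6% of their 100-base windows, although their estimated counts were whole. Hsp90ab1 shared none.

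In mitochondria, Hspd1 fell and its partners were not called. Hspd1 (chr1:55077833-55088243), the barrel-shaped Hsp60, had 194, 184 and 174 CPM in WT and 152, 148 and 145 CPM in KD, a change of -0.31 ± 0.05 (adjusted p = 0.0045). Hspe1, the lid of that barrel, had 49.3, 59.2 and 45.5 CPM in WT and 49.5, 45.9 and 46.3 CPM in KD. Its groups overlapped, with WT replicate 2 above the rest, and its change was -0.12 ± 0.09, or -0.0069 without that library. Hspa9, which pulls proteins through the inner membrane, was at -0.0052 ± 0.06. The 3 genes summed to 530 to 604 TPM in WT and 514 to 552 TPM in KD, which overlapped. Of Hspd1 windows 26.9%, and of Hspe1 windows 20.4%, were shared with other annotated genes.

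Hspd1 and Hspe1 stand head to head. Hspd1 has 2 RefSeq start sites, and its windows share 4 bases (start at the end of the printed span) and 285 bases (start inside the span) with the window of Hspe1. The heat-shock element printed here lies before the inner Hspd1 start and before Hspe1, and within the Hspd1 span, and it is shown because 1 of these genes fell and 1 was not called. Capitals mark the GAA and TTC units, 4 in a row, which give 2 overlapping matches.
Hspe1 and Hspd1 joint element, chr1:55088059-55088076, plus strand: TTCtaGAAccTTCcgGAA
The 95% interval of Hspe1, from -0.33 to 0.089, took in both 0 and the value of Hspd1. Whether Hspd1 and Hspe1 differ was not tested.

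Other genes of the same pathways, taken from textbook lists and not by their change, gave the following counts. Of 30 further ER genes 29 were tested, with 6 lower and 3 higher in KD and a median of -0.038. Of the genes called, the largest fall was in Uggt1, which marks unfolded glycoproteins for another round with Calr and Canx, at -0.47 ± 0.05 (adjusted p = 0.00067). It went from 130 ± 3.31 CPM in WT to 94.1 ± 3.38 CPM in KD (SD, n = 3). Edem2, an ERAD mannosidase, was at -0.38 ± 0.10 and Kdelr2, a receptor that returns ER proteins from the Golgi, at -0.29 ± 0.08. The third UPR sensor, Eif2ak3, was higher at 0.31 ± 0.06 (adjusted p = 0.0073), as was Mbtps1, the protease that cuts Atf6, at 0.26 ± 0.06. Dnajc1, at 0.33 ± 0.09, was also higher, with fractional counts in all 6 libraries. Their summed level was 98.9% of WT in KD.

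Of 28 further genes on the cytosolic list 2 were higher and 5 lower, with a median of -0.02. The list includes Serpinh1, whose protein works in the ER and which was not called (0.0053 ± 0.11). Fkbp5, an Hsp90 co-chaperone of steroid receptors, was higher at 0.38 ± 0.06 (adjusted p = 0.0039), and Dnaja2 at 0.17 ± 0.05. Hspbp1, which exchanges the nucleotide on Hsp70, was lower at -0.44 ± 0.08 (adjusted p = 0.0048). Also lower were Hspb6 at -0.61 ± 0.16 and Hspa1l at -0.49 ± 0.14, the latter with fractional counts in all 6 libraries. Of 16 further mitochondrial genes 1 was higher, the protease subunit Spg7 at 0.29 ± 0.06, and 1 lower. That gene was Atf5, a transcription factor of the mitochondrial stress response, at -0.90 ± 0.16 (adjusted p = 0.0057), from 44.8 ± 10.8 CPM in WT to 23.9 ± 2.18 CPM in KD (SD, n = 3). The median of the 16 was 0.018, and the summed levels of the cytosolic and mitochondrial lists were 99.4% and 101% of WT. The background for these lists is the same 11.9% lower and 12% higher of all genes. A mean of at least 20 CPM was reached by 25 of the ER, 20 of the cytosolic and 14 of the mitochondrial list. Among all genes at that level the shares were 15.8% lower and 15.6% higher.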

How the data were processed

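The authors sequenced mRNA on the DNBSEQ platform. Per the submitters' processing notes, HISAT2 2.2.1, Bowtie2 2.4.5 and RSEM 1.3.1 were used with GRCm38 (mm10); their order and the annotation are not given in the sources used here. The estimated counts deposited per gene carry 2 decimals, and 89.3% to 89.9% of values per library were whole. The deposited TPM values divide by transcript length. The 12 columns of FPKM values and group averages were not used.

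After rounding, KD was compared with WT over all 6 libraries in edgeR 4.0.16 and R 4.3.3 (TMM scaling, filterByExpr with a minimum count of 10, two-sided quasi-likelihood F-test, Benjamini-Hochberg adjustment over 13669 genes, threshold 0.05). SE was taken as the size of the log2 change over the root of its F value. The between-library coefficient of variation was 7.69%. The test was checked on simulated data, in which 200 of 13577 genes were altered. It called 98% of the strongly altered and 25% of the weakly altered genes, with 7 false calls. Most weakly altered genes thus went without a call there. Alternatives used limma 3.58.1 and DESeq2 1.42.0. Gene spans and promoter windows are those of RefSeq on GRCm38.p6, and shared windows were counted over GENCODE transcripts. Protein sequences were not used here.

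Groups and replicate numbers came from the sample titles, and columns named Ctrl were matched to WT titles by number. The study's methods speak of independent replicate experiments, and the series text of several sequencing batches, without saying which libraries share one. Replicates differed by more than sampling noise (chi-square per degree of freedom 4.57 to 9.05). Deviations from the group means correlated at 0.351, 0.320 and 0.178 for same-numbered libraries and at -0.276 to -0.018 otherwise. Deviations from a mean of 3 libraries sum to 0, which makes some of these correlations negative by construction. Same-numbered libraries thus deviated together, but what a number marks is not stated. A fit with the replicate block was run beside the unpaired one, and the main calls, SEs and intervals are those of the unpaired fit.

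All 37 genes and Ybx1 were to be named, and from the other lists up to 3 genes per direction with the largest change among those called with a mean of at least 5 CPM. Called chaperones among the 37 with a mean of at least 20 CPM are given in every library. Called cell type markers were named after their values were seen, and 1 marker is not reported here. The genes and lists were chosen with earlier results of these data known.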

Additional observations from a re-analysis of the deposited data

How the results depend on the processing

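The 12 called chaperones kept their direction in all 17 alternatives, and 6 of them (Calr, Hyou1, Sel1l, Xbp1, Hsp90ab1 and Hspd1) kept the call in all but the one without both replicate 2 libraries. There the counts were 0 lower of the ER, 0 higher and 0 lower of the cytosolic and 0 lower of the mitochondrial genes, with 135 of all genes higher and 93 lower, and 4 libraries left. With the replicate block, 1 ER gene was higher and 2 cytosolic genes were lower. The block changed no other call among the 37 genes. Leaving out 1 library gave 4 to 8 lower and 0 to 1 higher ER genes, 1 to 2 higher and 0 to 1 lower cytosolic genes, and a cytosolic median between -0.11 and -0.0023 (-0.11 without WT replicate 3). All genes then ran from 779 to 1612 higher and from 797 to 1583 lower, lowest without WT replicate 2. Upper quartile scaling left 1 higher cytosolic gene. No lower cytosolic gene (0) remained under RLE scaling, total count scaling, no filter, DESeq2 or TPM. On TPM the median was -0.038 for ER and 0.027 for cytosolic genes. The cause of these shifts was not tested.

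Of the 24 genes without a call, 11 changed sign in some alternative, none past the threshold. Under total count scaling Pdia4 was at 0.0016, Edem1 at 0.0078 and Hspa9 at 0.017. On TPM Pdia4 was at 0.031, Creld2 at 0.018, Edem1 at 0.035, Hspa1b at 0.027 and Hspa9 at 0.048. With upper quartile scaling Manf was at -0.013 and Dnaja1 at -0.016, with no filter Hspa9 was at 0.0012, and without both replicate 2 libraries Dnaja1 was at -0.040 and Hspe1 at 0.013. Leaving out 1 library gave ranges of -0.060 to 0.023 for Pdia4, -0.024 to 0.10 for Dnajb9, -0.015 to 0.23 for Sdf2l1, -0.087 to 0.037 for Creld2, -0.060 to 0.055 for Manf, -0.064 to 0.032 for Edem1, -0.15 to 0.16 for Hspa1b, -0.030 to 0.050 for Dnaja1, -0.0043 to 0.087 for Hsf1 and -0.058 to 0.029 for Hspa9.

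The alternative with another pseudocount was meant for a table of normalised values alone and was not run, since counts were given. With 3 libraries per group, changes as small as that of Hspa8 sit at the threshold. Gene totals carry no information on splicing, protein or the cell type in which a change occurred.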
